A study of Homo sapiens with 4 samples.

Results

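The E2F transcription factors and the RB pocket proteins were followed in MV4-11 cells, a human AML cell line, after knockdown of ANP32B. The members were set by gene symbol, with no threshold on a value. They are E2F1, E2F2, E2F3, E2F4, E2F6, E2F7 and E2F8, and the pocket proteins RB1, RBL1 and RBL2. Of these 10 genes, 9 had a row among the 18885 genes listed, and E2F7 was not analysed here. The control group (sh-NC) and the knockdown group (sh-ANP32B) had 2 libraries each, all of total RNA from the same cell line and with no time point in the labels. The control cells carry the shRNA entry none in the labels, and sh-NC is the study's own name for its control. If the control cells carried no hairpin, any effect of transduction and selection cannot be told apart from the loss of ANP32B. The knockdown columns of the deposited values carry the mark S3 in place of the label's name. They were taken as the sh-ANP32B libraries, with S3 read as the study's hairpin 3, and the labels do not give the hairpin. The labels also do not say whether the libraries of a group came from separate cultures, so the p-values measure the spread between these libraries, which may be technical.

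The values are TPM (a transcript abundance), in which reads are divided by gene length and every library is brought to one total, so levels of different genes within a library can be compared. The number of reads behind a TPM value is lost, so depth and counting error are unknown. The 4 libraries summed to between 997271 and 998546 TPM. Mitochondrial genes held 15.4% to 15.9% of the TPM in sh-NC and 17.4% to 17.6% in sh-ANP32B, and the 10 highest genes held 12.8% to 13.3% and 14.8%, and the part of these shares in the results was not tested. Differences were tested on log2(TPM + 1) by limma, over 16937 genes that reached 1 TPM in 2 or more libraries, and a gene passed at an adjusted p below 0.05 (Benjamini-Hochberg over all genes tested). All log2 fold changes are sh-ANP32B against sh-NC on this scale, which understates the change of genes at low TPM. ANP32B itself stood at 358 and 364 TPM in sh-NC, against 54.1 and 49.3 in sh-ANP32B, or 14.3% of the sh-NC mean (log2 fold change -2.78, limma adjusted p = 2.89e-05). Markers of the MV4-11 label were present in all libraries. Over 9 of 9 genes they summed to 1547 and 1571 TPM in sh-NC, against 1941 and 1940 in sh-ANP32B. The sum hides a split, with 4 higher and 2 lower, against 26.0% and 19.7% of all genes tested. PTPRC, CD4, SPI1 and CD33 were higher, at log2 fold changes of 1.15, 0.69, 0.51 and 0.40. HOXA10 and MEIS1 were lower, at -0.64 and -0.61, and 3 markers did not pass.

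E2F factors bind DNA at the promoters of genes for DNA replication and cell division, in most cases together with a DP partner. E2F1, E2F2 and E2F3 are known as activators, E2F4 acts mainly as a repressor together with pocket proteins, E2F6 represses without them as part of a polycomb complex, and E2F7 and E2F8 are atypical repressors that bind DNA without a DP partner. The pocket proteins RB1 (pRB), RBL1 (p107) and RBL2 (p130) hold E2F factors in check until cyclin-dependent kinases phosphorylate them. RBL2 is known as the pocket protein of resting cells, where it joins E2F4 and the MuvB proteins in the DREAM complex, and RB1 was first described as a tumor suppressor. Much of this control acts on the proteins, which RNA levels do not show.

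The members differed in direction. The activators E2F1 and E2F2, the atypical repressor E2F8 and the pocket protein RBL1 were lower in sh-ANP32B, at 42.9% to 65.1% of the sh-NC mean. RBL2 was the single member that was higher, at 129% of the sh-NC mean. E2F3, E2F4, E2F6 and RB1 did not pass the test, and RB1 had almost the same level in both groups. Thus 4 of 9 members passed as lower, against 19.7% of all genes tested, and 1 of 9 passed as higher, against 26.0% of all genes tested. In either direction this made 5 of 9, against 45.7%. With a further limit of 0.5 on the log2 fold change, 4 members were lower and 0 were higher, against 10.1% and 17.9% of all genes and 28.0% in either direction. With the fold limit and an unadjusted p below 0.05 the members' counts were the same, against 10.8%, 20.2% and 31.0% of all genes. The libraries of the groups did not overlap for 6 members, 5 lower and 1 higher, which holds for 32.1% (lower), 42.5% (higher) and 74.7% (either) of all genes tested. In bulk RNA, fewer cycling cells and less RNA per cell cannot be told apart.

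**Figure D1:**
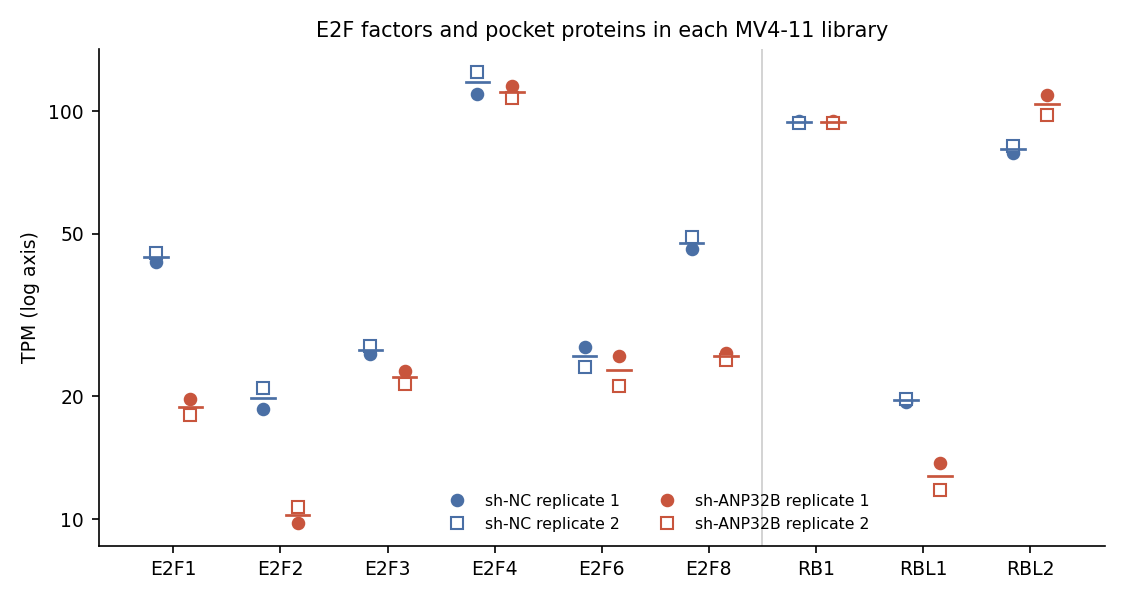
TPM of each of the 9 members in the 4 libraries, on a log scale, with a point for each library and a bar at the mean of the 2 libraries of a group. E2F1, E2F2, E2F8 and RBL1 sit lower in both sh-ANP32B libraries, RBL2 sits higher, and the points of RB1 lie on top of each other.

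The promoters of the members were read for E2F sites, since genes of this family are known to be targets of the family itself. The windows run from 250 bases before to 50 bases after the start of a RefSeq transcript (GRCh38.p14, hg38), and 9 of the 10 members matched 11 windows. E2F8 had no entry. The letters searched on both strands were TTTCGCGC, TTTGGCGC, TTTCCCGC and TTTGCCGC. Shown are the 150 bases before the start, on the strand of the gene and 5′ to 3′, for the genes whose window held a match and for E2F4, whose window held none. Capitals mark the match, and a match on the opposite strand is shown as it reads on the strand of the gene.
E2F1 (chr20:33686386-33686535, minus strand): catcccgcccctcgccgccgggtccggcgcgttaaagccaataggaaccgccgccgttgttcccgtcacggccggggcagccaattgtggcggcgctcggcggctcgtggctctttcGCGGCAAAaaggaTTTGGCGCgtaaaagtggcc
E2F2 (chr1:23531234-23531383, minus strand): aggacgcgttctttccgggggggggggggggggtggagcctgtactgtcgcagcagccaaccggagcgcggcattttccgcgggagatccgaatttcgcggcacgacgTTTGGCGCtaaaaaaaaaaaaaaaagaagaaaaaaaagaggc
E2F3 (chr6:20401729-20401878, plus strand): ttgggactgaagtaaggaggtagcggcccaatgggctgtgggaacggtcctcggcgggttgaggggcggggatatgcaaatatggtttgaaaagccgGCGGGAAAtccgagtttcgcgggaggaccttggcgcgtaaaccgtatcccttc
RBL1 (chr20:37095998-37096147, minus strand): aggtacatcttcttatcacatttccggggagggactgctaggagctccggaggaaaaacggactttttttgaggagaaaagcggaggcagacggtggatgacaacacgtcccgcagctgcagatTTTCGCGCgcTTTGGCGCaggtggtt
E2F4 (chr16:67192005-67192154, plus strand): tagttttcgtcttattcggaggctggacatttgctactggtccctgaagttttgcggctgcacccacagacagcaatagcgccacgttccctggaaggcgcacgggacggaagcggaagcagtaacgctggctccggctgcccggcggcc

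E2F1 and RBL1 held 2 matches each, within 33 bases of the start, and E2F2 and E2F3 held 1 each, beginning 42 and 53 bases before it. Of the 11 windows, 4 held a match, against 3.315% of all 35116 windows of the same length and 5.01% of the 14342 windows of genes tested. Of the 4 genes with a match, E2F1, E2F2 and RBL1 were lower and E2F3 did not pass. The windows of RB1 and RBL2 and the second window of E2F3 begin inside the gene as GENCODE draws it, by 172706 bases for RB1, so the main start of RB1 was not read. The CHR element, which the MuvB proteins bind in promoters of mitotic genes, was searched as TTTGAA on both strands. It was found in 2 of the 11 windows (18.2%), of E2F3 and RBL2, against 15.2% of all windows. The CCAAT box, a common promoter element, was searched as CCAAT on both strands. It was present in 4 of the 11 windows (36.4%), among them a window of E2F7, against 34.6% of all windows. A match is a description of letters and not a binding site.

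**Figure D2:**
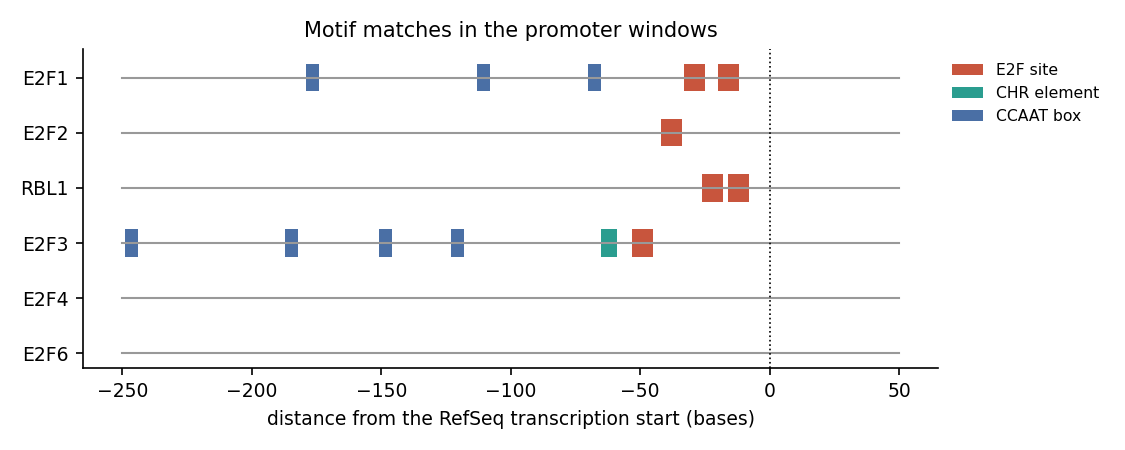
Position of E2F, CHR and CCAAT matches as bases from the transcript start, for the measured members whose RefSeq window lies at the start of the gene. The E2F matches of E2F1, E2F2, E2F3 and RBL1 lie between 53 and 9 bases before the start, and the windows of E2F4 and E2F6 hold none.

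Among the activators, E2F1 showed the largest change of any member. E2F1 (ENSG00000101412, chr20:33675477-33686385, minus strand), which drives entry into S phase and can also switch on apoptosis genes, stood at 42.8 and 44.9 TPM in sh-NC, against 19.7 and 18.0 in sh-ANP32B. Both sh-ANP32B libraries lay far under both sh-NC libraries, with means of 43.8 ± 1.52 and 18.8 ± 1.19 TPM (SD, n = 2). The log2 fold change was -1.18 (SE 0.076, 95% confidence interval -1.37 to -0.99, limma adjusted p = 0.000268). It kept its direction and passed under all 12 alternative settings, with values from -1.26 to -1.12.

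E2F2 (ENSG00000007968, chr1:23506438-23531233, minus strand), an activator with much the same targets, had 18.6 and 20.9 TPM in sh-NC, against 9.78 and 10.7 in sh-ANP32B. The knockdown libraries were at 51.8% of the sh-NC mean, and the groups did not overlap. The log2 fold change was -0.88 (SE 0.106, 95% confidence interval -1.15 to -0.62, limma adjusted p = 0.0018).

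E2F3 (ENSG00000112242, chr6:20401879-20493714, plus strand), whose gene makes an activating and a repressing form from separate starts, had 25.4 and 26.6 TPM in sh-NC, against 23.1 and 21.5 in sh-ANP32B. The groups did not overlap, yet the difference was small beside that of E2F1 and E2F2 and did not pass, with a log2 fold change of -0.21 (SE 0.077, 95% confidence interval -0.41 to -0.02, limma adjusted p = 0.0703). It passed under median-of-ratios scaling (-0.29, limma adjusted p = 0.0243) and under quantile normalization (-0.24, limma adjusted p = 0.0463). The TPM do not tell the forms of E2F3 apart. The ratio of E2F1 to E2F3 within a library was 1.68 and 1.69 in sh-NC against 0.850 and 0.836 in sh-ANP32B, so E2F1 was above E2F3 in the control libraries and below it in the knockdown libraries. E2F3 made up 29.3% and 28.8% of the summed TPM of the activators in sh-NC against 44.0% and 42.8% in sh-ANP32B.

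Of the repressors, only E2F8 passed the test. E2F8 (ENSG00000129173, chr11:19224063-19241620, minus strand), which is made late in S phase and turns E2F targets down again, had 45.8 and 49.0 TPM in sh-NC, against 25.6 and 24.5 in sh-ANP32B. The groups did not overlap, and the log2 fold change was -0.89 (SE 0.068, 95% confidence interval -1.06 to -0.72, limma adjusted p = 0.000407). The repressor E2F8 was lower along with the activators E2F1 and E2F2, at 52.9% of the sh-NC mean. The ratio of the summed activators to E2F8 was 1.90 and 1.89 in sh-NC against 2.05 and 2.04 in sh-ANP32B.

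E2F4 (ENSG00000205250, chr16:67192155-67198918, plus strand), the partner of RBL2 in DREAM, had 110.4 and 125 TPM in sh-NC, against 115 and 107 in sh-ANP32B. Its groups overlapped, and the log2 fold change was -0.08 (SE 0.073, 95% confidence interval -0.26 to 0.11, limma adjusted p = 0.436). E2F6 (ENSG00000169016, chr2:11444375-11466177, minus strand), the polycomb-bound member, had 26.4 and 23.6 TPM in sh-NC, against 25.1 and 21.2 in sh-ANP32B. Its groups overlapped too, and the log2 fold change was -0.11 (SE 0.108, 95% confidence interval -0.38 to 0.16, limma adjusted p = 0.442). The intervals leave room for a modest change of either gene in either direction. E2F6 has 4 named pseudogenes that reads could be shared with, so its level is uncertain to that extent. Of these, E2F6P1 was listed at 3.16 and 3.04 TPM in sh-NC, against 1.96 and 2.89 in sh-ANP32B.

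The pocket proteins went different ways. RB1 (ENSG00000139687, chr13:48303744-48599436, plus strand), the retinoblastoma protein, had 94.8 and 93.7 TPM in sh-NC, against 94.8 and 93.3 in sh-ANP32B. The values overlapped almost fully, at 99.8% of the sh-NC mean, with a log2 fold change of -0.0036 (SE 0.043, 95% confidence interval -0.11 to 0.10, limma adjusted p = 0.958). RBL1 (ENSG00000080839, chr20:36996349-37095997, minus strand), which is known to be made mainly in cycling cells and carries the 2 adjacent E2F matches printed above, had 19.3 and 19.7 TPM in sh-NC, against 13.7 and 11.8 in sh-ANP32B. The groups did not overlap, and the log2 fold change was -0.59 (SE 0.104, 95% confidence interval -0.84 to -0.33, limma adjusted p = 0.00717).

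RBL2 (ENSG00000103479, chr16:53433977-53491648, plus strand), the pocket protein of resting cells, had 79.1 and 82.3 TPM in sh-NC, against 110 and 98.0 in sh-ANP32B. Both knockdown libraries were above both control libraries, and the log2 fold change was 0.36 (SE 0.066, 95% confidence interval 0.19 to 0.52, limma adjusted p = 0.00838). It passed in every refit, with values from 0.27 to 0.44, but stayed under the fold limit of 0.5. RBL2 shares 609 exonic bases, or 7.51% of its exonic length, with AKTIP on the opposite strand, and the handling of strand is not given in the sources used here. AKTIP had 4.97 and 6.04 TPM in sh-NC, against 5.05 and 3.99 in sh-ANP32B, low beside RBL2.

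**Figure D3:**
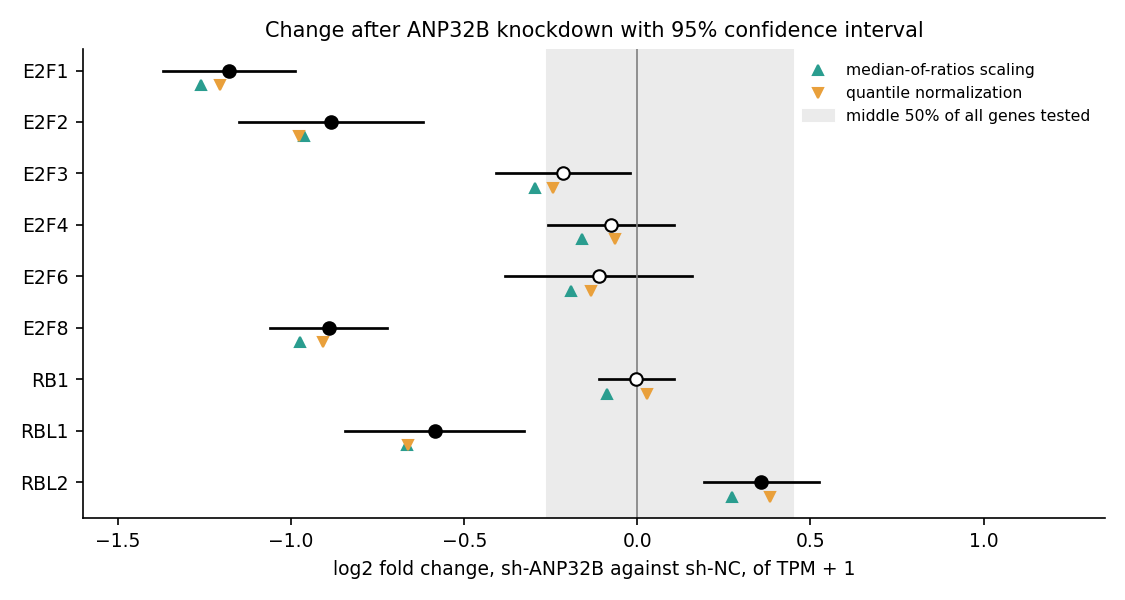
Log2 fold change of each member, sh-ANP32B against sh-NC, on the log2(TPM + 1) scale, with 95% confidence intervals from limma and n = 2 libraries per group. E2F1 lies lowest at -1.18, RBL2 is highest at 0.36, and RB1 sits at 0 with a narrow interval.

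In sh-NC the order of the mean levels was E2F4 (118 TPM), RB1 (94.2 TPM), RBL2 (80.7 TPM), E2F8 (47.4 TPM), E2F1 (43.8 TPM), E2F3 (26.0 TPM), E2F6 (25.0 TPM), E2F2 (19.8 TPM) and RBL1 (19.5 TPM). Of the neighbours in this order, E2F3 and E2F6 overlapped in their libraries, as did E2F2 and RBL1. In sh-ANP32B the order was E2F4 (111 TPM), RBL2 (104 TPM), RB1 (94.0 TPM), E2F8 (25.1 TPM), E2F6 (23.1 TPM), E2F3 (22.3 TPM), E2F1 (18.8 TPM), RBL1 (12.7 TPM) and E2F2 (10.3 TPM). RBL2 thus stood above RB1, and E2F1 below E2F3 and E2F6. Here E2F4 overlapped with RBL2, E2F8 with E2F6, and E2F6 with E2F3, and no other neighbours did.

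E2F4 held a larger share of the E2F factors in both knockdown libraries. E2F4 made up 41.0% and 43.1% of the summed TPM of the 6 E2F members in sh-NC against 52.8% and 52.8% in sh-ANP32B, while E2F1 made up 15.9% and 15.5% against 8.99% and 8.84%. The summed TPM of E2F1, E2F2 and E2F3 was 86.8 and 92.4 in sh-NC against 52.6 and 50.2 in sh-ANP32B. Against E2F4 this sum gave a ratio of 0.787 and 0.741 in sh-NC against 0.456 and 0.467 in sh-ANP32B, a difference of -0.73 on the log2 scale. Against E2F6 the ratio was 3.28 and 3.91 in sh-NC against 2.10 and 2.37 in sh-ANP32B.

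The sum of the pocket proteins was 193 and 196 TPM in sh-NC, against 218 and 203 in sh-ANP32B, and RBL2 made up more of it in both knockdown libraries and RBL1 less. The ratio of RBL1 to RBL2 was 0.244 and 0.240 in sh-NC against 0.125 and 0.120 in sh-ANP32B, a difference of -0.98 on the log2 scale. The ratio of RB1 to RBL2 was 1.20 and 1.14 in sh-NC against 0.864 and 0.951 in sh-ANP32B, and that of RB1 to RBL1 was 4.90 and 4.75 against 6.92 and 7.93. The groups did not overlap for any of the 6 ratios tested. The 2-sided exact permutation test gave p = 0.333 for each, the smallest p that 2 libraries against 2 allow, and 0.333 after adjustment over the 6 ratios.

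**Figure D4:**
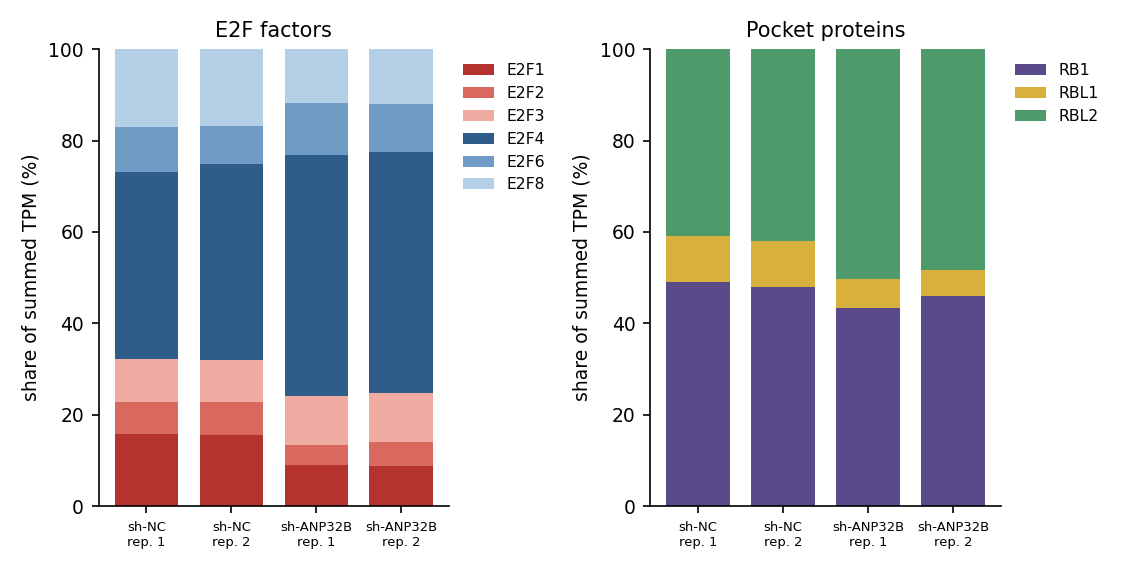
Share in percent of each E2F member in the summed TPM of the 6 E2F members (left) and of each pocket protein in the sum of the 3 (right), with 1 stacked bar per library. The share of E2F4 is larger and that of E2F1 smaller in both sh-ANP32B libraries, and the share of RBL2 is larger than that of RB1 there.

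The genes whose pattern over the 4 libraries was nearest to that of a member were found by distance between log2(TPM + 1) values less the sh-NC mean, among 10532 genes whose mean reached 5 TPM. For E2F1 they were HJURP, which loads the centromeric histone, MCM2, a subunit of the replicative helicase, and RCN1, with distances of 0.0712, 0.0728 and 0.0746. For E2F8 they were KIF4A, a mitotic motor protein, MSH6, a mismatch repair protein, and CDC7, a kinase that starts replication, with distances of 0.0328, 0.0515 and 0.0543. For RBL2 they were GID4, OCRL and BRPF3, at 0.0133, 0.0232 and 0.0264. RB1 was nearest to RFX1, PHPT1 and TGDS, at 0.0071, 0.00975 and 0.0124. Within a distance of 0.2 lay 84 genes for E2F1, 250 for E2F8, 975 for RBL2 and 1661 for RB1. These counts follow the size of each member's log2 fold change and say nothing further about its pattern.

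The genes around the members were taken from lists of known partners, regulators and targets, and each list was set beside the median log2 fold change of 0.08 over all genes tested. That median was -0.04 under quantile normalization, a shift of more than 0.1. The DP partners, which the typical E2F factors need to bind DNA, were both lower. TFDP1 had 644 and 655 TPM in sh-NC, against 463 and 470 in sh-ANP32B (log2 fold change -0.48, limma adjusted p = 0.000332). It was far above any E2F member in level. TFDP2 had 9.59 and 8.87 TPM in sh-NC, against 6.26 and 4.58 in sh-ANP32B (log2 fold change -0.68, limma adjusted p = 0.0221), and its call was lost without sh-NC library 1, sh-NC library 2 or sh-ANP32B library 2 (limma adjusted p up to 0.0891).

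Of the MuvB proteins and their partners, 4 of 7 were lower and 0 were higher, against 19.7% and 26.0% of all genes tested. The list median was -0.52 on the log2 scale. MYBL2 and FOXM1, the activators that join MuvB in dividing cells, fell by 1.03 and 0.95 on the log2 scale. LIN9, a core subunit, fell by 0.79 and the histone chaperone RBBP4 fell by 0.52. The other core subunits did not pass, with log2 fold changes of 0.39 for LIN37, 0.04 for LIN52 and -0.27 for LIN54. LIN37 was above the sh-NC libraries in both sh-ANP32B libraries, and it passed with the replicate number as a block (limma adjusted p = 0.0346) and without sh-NC library 2 (limma adjusted p = 0.0203). LIN54 passed as lower under median-of-ratios scaling and under quantile normalization (lowest limma adjusted p = 0.0266), which made 5 of 7 lower.

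The kinases that phosphorylate the pocket proteins were listed together with their cyclins. Of these cyclins and kinases, 5 of 7 tested genes were lower and 0 were higher, against 19.7% and 26.0% of all genes tested. CDK2, the kinase of cyclin E, had 83.9 and 85.6 TPM in sh-NC, against 44.4 and 46.8 in sh-ANP32B (log2 fold change -0.88), and its cyclins CCNE1 and CCNE2 fell by 0.64 and 0.60. The call of CCNE1 was lost without sh-NC library 2 and without sh-ANP32B library 2 (limma adjusted p up to 0.0921). CDK4 and CCND2 fell by 0.53 and 0.47, whereas CDK6 and CCND3 did not pass, at -0.03 and -0.06. CCND1 stood at 0.846 to 1.02 TPM and was not tested.

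The inhibitors of these kinases split by level, and all 7 passed in some direction, against 45.7% of all genes tested. CDKN1A (p21), which stops the cell cycle under p53, had 8.56 and 7.15 TPM in sh-NC, against 16.5 and 20.2 in sh-ANP32B (log2 fold change 1.13, limma adjusted p = 0.00215). CDKN2B and CDKN2D, both INK4 inhibitors of the cyclin D kinases, rose by 1.04 and 0.64. The level of CDKN2B was low, at 1.84 and 2.86 TPM in sh-NC against 6.22 and 5.42 in sh-ANP32B. CDKN1C rose by 0.78 at no more than 2.18 TPM, and its call was lost in 6 of 9 refits, among them each left-out library. The inhibitors with more RNA in sh-NC were lower, with CDKN2C at -0.46, CDKN2A at -0.37 and CDKN1B at -0.28. CDKN2A makes both the INK4 inhibitor and ARF, which the TPM do not tell apart.

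Of the corepressors that pocket proteins recruit, 4 of 8 were lower and 2 were higher, against 19.7% and 26.0% of all genes tested. With the fold limit of 0.5, 2 were lower and 0 higher, against 10.1% and 17.9% of all genes tested. The list median was -0.17 on the log2 scale. The histone methyltransferase SUV39H1 fell by 0.74, the deacetylases HDAC2 and HDAC1 fell by 0.51 and 0.21, and the remodeller SMARCA4 fell by 0.29. SIN3B and KDM5A rose by 0.42 and 0.36, and both calls were lost without sh-ANP32B library 2, which left 0 higher by limma. ARID4A and SMARCA2 did not pass, at 0.00 and -0.13.

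**Figure D5:**
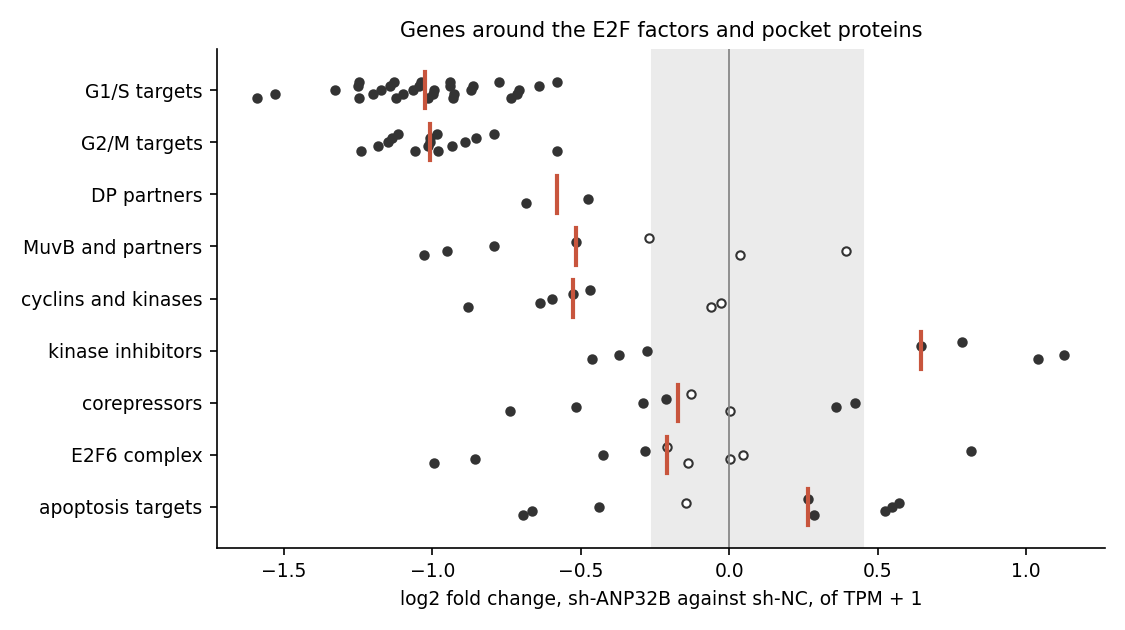
Log2 fold change of each tested gene of the lists around the members, sh-ANP32B against sh-NC, with 1 point per gene (filled where it passed, open where it did not), a bar at the list median and a grey band over the middle 50% of all genes tested. The G1/S and G2/M targets lie entirely under 0, the kinase inhibitors lie on both sides, and the median of all genes tested is 0.08.

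Known E2F targets of the G1/S transition were lower without exception, while 19.7% of all genes tested passed as lower. This list, like that of the G2/M genes, was chosen with earlier results of these data known, so its share is a description. All 30 of 30 passed as lower, with a median of -1.03 on the log2 scale, and all 30 did so under every alternative. The lowest value was -1.59 for CDT1, which licenses replication origins and fell from 111 and 111 to 36.4 and 35.9 TPM. Their summed level was 4046 and 4088 TPM in sh-NC, against 1957 and 1957 in sh-ANP32B. E2F1 lay within the range of these targets. Of the 26 targets with a RefSeq window, 16 (61.5%) held an E2F match, against 6.74% of genes tested.

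Genes of G2/M that MuvB complexes control were lower too, with a median of -1.01 and 16 of 16 lower, against 19.7% of all genes tested. They ran from -1.24 for CDC20, which activates the anaphase-promoting complex, to -0.58 for CCNF. Their windows held the other motifs, with a CHR match in 9 of 13 genes (69.2%), against 13.5% of genes tested, and an E2F match in 1 of 13. The promoter box CCAAT was present in 13 of 13 of these genes, against 42.6% of genes tested. MKI67, a marker of cycling cells, had 103 and 108 TPM in sh-NC, against 56.3 and 53.1 in sh-ANP32B.

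Over all genes, E2F matches were present in 8.07% of the windows of genes that were lower and in 3.60% of those of genes that were higher. These shares describe 3347 and 4052 windows, from the genes that matched a window by symbol.

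Markers of mature monocytes moved with these results. Of the 8 listed markers 7 had a row, and CD14, a main marker of the list, was not analysed here. Of these 7 markers, 6 were higher, against 26.0% of all genes tested. The 7 summed to 569 and 559 TPM in sh-NC, against 5992 and 5958 in sh-ANP32B, most of it LYZ. CSF1R, which defines the lineage, did not pass, with at most 2.36 TPM. Markers of B cells summed to 10.8 and 11.5 TPM in sh-NC and to 4.10 and 6.04 TPM in sh-ANP32B. Of the T cell, erythroid and megakaryocyte lists only CD2, KLF1 and ITGA2B had a row, and none exceeded 3.63 TPM. CD2, a T cell marker, was higher and had 0.521 and 0.442 TPM in sh-NC but 3.62 and 3.63 in sh-ANP32B (log2 fold change 1.64, limma adjusted p = 0.00172). Whether the monocyte genes or CD2 have a part in the levels of the members was not tested.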

How the data were processed

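RNA-seq of MV4-11 cells was analysed in 2 libraries of sh-NC and 2 of sh-ANP32B, grouped by the sample labels, with the columns marked S3 taken as sh-ANP32B. The labels name no hairpin for the control. The authors deposited TPM for each gene in each library, after alignment with HISAT2 to hg38 (version 2.0.5, per the submitters' processing notes). The unit was read from the values. The tool, annotation and handling of strand behind the TPM are not given in the sources used here. The authors used DESeq2, a test for counts, which was not run. Instead, log2(TPM + 1) was fitted with limma (version 3.58.1, R 4.3.3) by lmFit and trended eBayes, without a block. Symbols and gene positions came from GENCODE 44, with a symbol for 17290 of 18885 identifiers, and promoter windows from RefSeq (GRCh38.p14). Ratios were tested by an exact permutation test with scipy 1.17.1. The ratio of E2F7 to E2F8 was planned and not formed, and the activators were set against E2F8 alone.

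The members and gene lists were chosen with earlier results of these data known. All members are named. Of each list, the genes with the lowest and highest log2 fold change and those against its main direction are named. Some list genes are not reported here. Further list genes named in the text were chosen after their values were seen. Per member, the 3 nearest genes at a mean of 5 TPM or more are named. The alternatives were the replicate block, no filter, at least 1 TPM in every library, a pseudocount of 0.1, means of log2(TPM + 1) for the ratios, median-of-ratios scaling, quantile normalization, each library left out and a fold limit of 0.5 with adjusted or unadjusted p.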

Additional observations from a re-analysis of the deposited data

How the results depend on the processing

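Of the members, E2F1, E2F2, E2F8 and RBL1 passed as lower under all 12 alternatives. With E2F3 there were 5 members lower under both scalings. The 1 member higher fell to 0 under the fold limit of 0.5, with the adjusted and with the unadjusted p, because RBL2 is under that limit. Over all genes, 3342 were lower and 4405 higher, and these became 1712 and 3024 with the fold limit and adjusted p, and 1833 and 3413 with the fold limit and unadjusted p. The share of calls that were lower was 43.1%, against 52.5% under median-of-ratios scaling and 52.7% under quantile normalization, and 36.1% and 34.9% with the fold limit at the adjusted and the unadjusted p.

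Members that did not pass changed sign in some settings. E2F4 ran from -0.16 to 0.012 over the left-out libraries, E2F6 from -0.23 to 0.0043 and RB1 from -0.015 to 0.0081. RB1 depended more on scaling, at 0.028 under quantile normalization and -0.087 under median-of-ratios scaling (limma adjusted p = 0.172). E2F3 passed under both scalings and in no other setting. Leaving out each library in turn gave 2560 to 2838 genes lower and 3174 to 3555 higher, with 4 members lower and 1 higher each time. The lone library of a group was there assumed to vary like the other group.

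The pairing by replicate number was checked by how libraries with the same number departed from their group means. The correlation was -0.0232, and the libraries were not treated as pairs. With the replicate block, 3102 genes were lower and 4031 higher, and 4 members were lower and 1 higher. The 6 ratios between members kept their direction without each library in turn and with means of log2(TPM + 1) in place of summed TPM, the alternatives run for them. The unknown depth limits statements on genes near 1 TPM.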

Other observations

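E2F6 represses within the polycomb complex PRC1.6, and E2F6 itself did not pass. Of its 9 partners with a row, 4 were lower and 1 was higher, against 19.7% and 26.0% of all genes tested. In either direction, 45.7% of all genes tested passed. With the fold limit of 0.5, 2 partners were lower and 1 was higher, against 10.1% and 17.9% of all genes tested. PCGF6, the subunit that defines the complex, had 27.4 and 29.9 TPM in sh-NC, against 15.3 and 12.6 in sh-ANP32B (48.6% of the sh-NC mean). The ubiquitin ligase RNF2 fell by 0.86, WDR5 fell by 0.43 and CBX3 fell by 0.28. RING1, the paralog of RNF2, had 1.5 and 2.51 TPM in sh-NC, against 4.69 and 3.75 in sh-ANP32B (log2 fold change 0.81, limma adjusted p = 0.0363), and its call was lost in 5 of 10 refits, with limma adjusted p up to 0.135. L3MBTL2, RYBP, YAF2 and MAX did not pass, and MGA was not analysed here.

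Apoptosis genes known as E2F1 targets were found in both directions. TP73 and PMAIP1 fell by 0.70 and 0.66 on the log2 scale. APAF1, which forms the apoptosome, had 31.3 and 32.3 TPM in sh-NC, against 47.9 and 47.6 in sh-ANP32B (log2 fold change 0.57), and CASP8 rose by 0.55. CASP9 and BCL2L11 rose by 0.52 and 0.26, each with its call lost in 5 of 10 refits. BBC3 did not pass, at -0.14.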
